A study of Mus musculus with 3 samples.

Results

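Genes of the unfolded protein response and of ER-associated degradation were compared between RM1-MXRA7 and RM1-VE cells, with Sel1l set against its partners. The 41 genes were chosen by name, as genes of the stress sensors, their transcription factors and targets, the chaperones and disulfide isomerases of the endoplasmic reticulum (ER), and the HRD1 degradation machinery. All 41 were on the array, among 30199 gene names, with 55 of the 39429 distinct probes. All 41 also passed the filter on low signal and stood among the 16758 genes tested. RM1 cells are a murine line of prostate cancer. The RM1-MXRA7 cells carried transfected MXRA7 and the RM1-VE cells the vehicle vector, per the labels, and both lines were kept in medium with serum and G418 and taken in exponential growth on day 2. Total RNA of both lines was hybridised together on 3 Agilent 2-colour arrays, numbered 1 to 3, with RM1-MXRA7 in Cy3 and RM1-VE in Cy5 on every array. The labels name neither the promoter that drives MXRA7 nor whether a line is a clone or a pool, and they call the arrays triplicates without saying whether the cultures were separate. The p-values therefore measure only the spread between these arrays, which may be technical, and 3 arrays limit the precision.

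Secreted and membrane proteins fold in the ER with the help of chaperones such as BiP (gene Hspa5) and of protein disulfide isomerases. When unfolded proteins build up, the sensors IRE1 (Ern1), PERK (Eif2ak3) and ATF6 switch on transcription through XBP1, ATF4 and cleaved ATF6, a program called the unfolded protein response. Proteins that fail to fold are pulled back to the cytosol and destroyed by the proteasome, and SEL1L is the adaptor that holds the ubiquitin ligase HRD1 (Syvn1) and its substrate receptors together in the ER membrane.

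The promoters of several members carry the ER stress element, the sequence through which ATF6 and XBP1 are known to act, and the stretches that hold it are shown here because the genes beside them did not share 1 response in these data. The element was searched as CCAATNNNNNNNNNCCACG on both strands of RefSeq promoter sequences (GRCm38.p6, 250 bases before to 50 after the start), which were given for 35 of the 41 genes. It stood in 8 of the 35 (22.9%), against 37 of all 27025 genes with a promoter (0.137%), these 8 included. The 8 were Hspa5, Hsp90b1, Calr, Canx, Creld2, Pdia6, Syvn1 and Derl3. Capitals mark the outer parts of the element, read 5′ to 3′ along the gene, so that an element on the opposite strand appears as CGTGG before ATTGG. Hsp90b1 held 2 matches, 1 in each direction.
Hspa5, chr2:34772005-34772063, plus strand: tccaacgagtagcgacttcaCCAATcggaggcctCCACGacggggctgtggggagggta
Canx, chr11:50325780-50325838, minus strand: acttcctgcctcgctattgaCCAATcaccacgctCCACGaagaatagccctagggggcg
Pdia6, chr12:17266471-17266529, plus strand: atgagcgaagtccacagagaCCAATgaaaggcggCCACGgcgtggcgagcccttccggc
Calr, chr8:84847055-84847113, minus strand: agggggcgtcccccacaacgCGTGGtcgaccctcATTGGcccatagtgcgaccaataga
Creld2, chr15:88819500-88819558, plus strand: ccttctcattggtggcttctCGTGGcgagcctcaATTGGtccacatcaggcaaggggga
Hsp90b1, chr10:86705513-86705676, minus strand: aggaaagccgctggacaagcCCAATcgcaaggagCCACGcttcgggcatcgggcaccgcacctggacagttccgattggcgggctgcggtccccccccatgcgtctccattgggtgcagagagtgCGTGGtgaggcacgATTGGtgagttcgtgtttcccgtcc
Syvn1, chr19:6046512-6046570, plus strand: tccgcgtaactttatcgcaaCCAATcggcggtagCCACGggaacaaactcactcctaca
Derl3, chr10:75893222-75893280, plus strand: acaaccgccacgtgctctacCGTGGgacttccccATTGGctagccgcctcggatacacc
The 250 bases before the start of Sel1l held no match to the element, which says only that these letters are not in this window. They are printed because Sel1l had the largest ratio of the 41.
Sel1l, chr12:91849158-91849407, minus strand: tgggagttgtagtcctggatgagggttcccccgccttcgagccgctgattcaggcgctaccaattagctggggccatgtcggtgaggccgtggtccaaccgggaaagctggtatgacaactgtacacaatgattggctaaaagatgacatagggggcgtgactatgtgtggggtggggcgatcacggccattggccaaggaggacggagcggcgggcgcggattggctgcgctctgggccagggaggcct
The XBP1 element, searched as TGACGTGG, stood in 2 of the 35 genes (5.71%), Ube2j1 and Vcp, against 0.714% of all genes. It shares the bases CCACG, on its opposite strand, with the end of the ER stress element, and no member held both. The C/EBP-ATF element, searched as TGATGNAA, stood in 6 of the 35 (17.1%), Asns, Atf3, Chac1, Herpud1, Nupr1 and Trib3, against 4.51% of all genes. The members were chosen by name as genes of these stress pathways, so shares above those of all genes were built into the choice and are no result. A match is a description of the letters and does not show that a factor binds there.

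Each array gave 1 log2 ratio per probe, RM1-MXRA7 over RM1-VE. Log ratios ran along the rows of every array, so a smooth surface was removed, and all values are ratios with the surface removed unless another scale is named. A second fit left the surface in place (loess alone), and a gene is said to have risen or fallen only where limma called it in the same direction in both fits at an adjusted p of 0.05. Mxra7 itself had ratios of 0.06, -0.01 and -0.03, a mean of 0.007 ± 0.05 (SD, n = 3; limma adjusted p = 0.936), and 0.31 with loess alone (limma adjusted p = 0.00516). The transfected gene therefore did not check the labels, and every direction here rests on the labelled dyes. No dyes were swapped, so dye bias and a difference between cell lines cannot be told apart for any probe. Of the epithelial markers, Krt8, Krt18 and Krt14 were well above background on all arrays and Krt5, Epcam and Cdh1 on none, and the prostate genes Pbsn and Hoxb13 were on none. The mesenchymal markers Vim, Fn1 and Cdh2 were well above background on all arrays, and Fn1 rose by 0.90. Of the leukocyte markers Cd68 and Cd3e were above background and Ptprc was not. All of Pecam1, Cdh5 and Kdr, markers of endothelium, were above it, with Cdh5 at -0.77 and Cd3e at -0.20, both lower in both fits. Relative to each channel's 75th percentile, the summed endothelial signal was 0.56 to 0.624 in RM1-MXRA7 and 0.633 to 0.644 in RM1-VE, and the summed leukocyte signal 0.904 to 2.82 and 1.12 to 2.88. The part of other cell types in the ratios was not tested, and in bulk RNA fewer cells of a type and less RNA per cell cannot be told apart.

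Most of the 41 genes were not called in both fits. Sel1l, Ddit3, Chac1 and Nupr1 rose, Derl3, Edem2 and Trib3 fell, and 34 did not pass in both. The 7 changed genes are 17.1% of the 41, and 23.8% of all genes tested were called in both fits, 10.9% higher and 12.9% lower, so the share among the 41 was no larger than that of all genes. The median log2 ratio of the 41 was 0.018, against -0.001 for all genes tested, and 37 of the 41 lay within 0.5 of zero. Sel1l differed by at least 2-fold, as did 0.31% of all genes tested upward and 0.639% downward in both fits. Derl3 had a measured ratio below -1 and is part of that downward share, which also holds genes well above background in only 1 line. Its signal in RM1-MXRA7 was not well above background, so its difference is given as a bound with its values. With the surface removed alone, 13 members were called, 7 higher and 6 lower, against 32.3% of all genes (15.5% higher and 16.8% lower). With loess alone 21 were called, 13 higher and 8 lower, against 47.4% of all genes (23.9% higher and 23.5% lower).

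**Figure D1:**
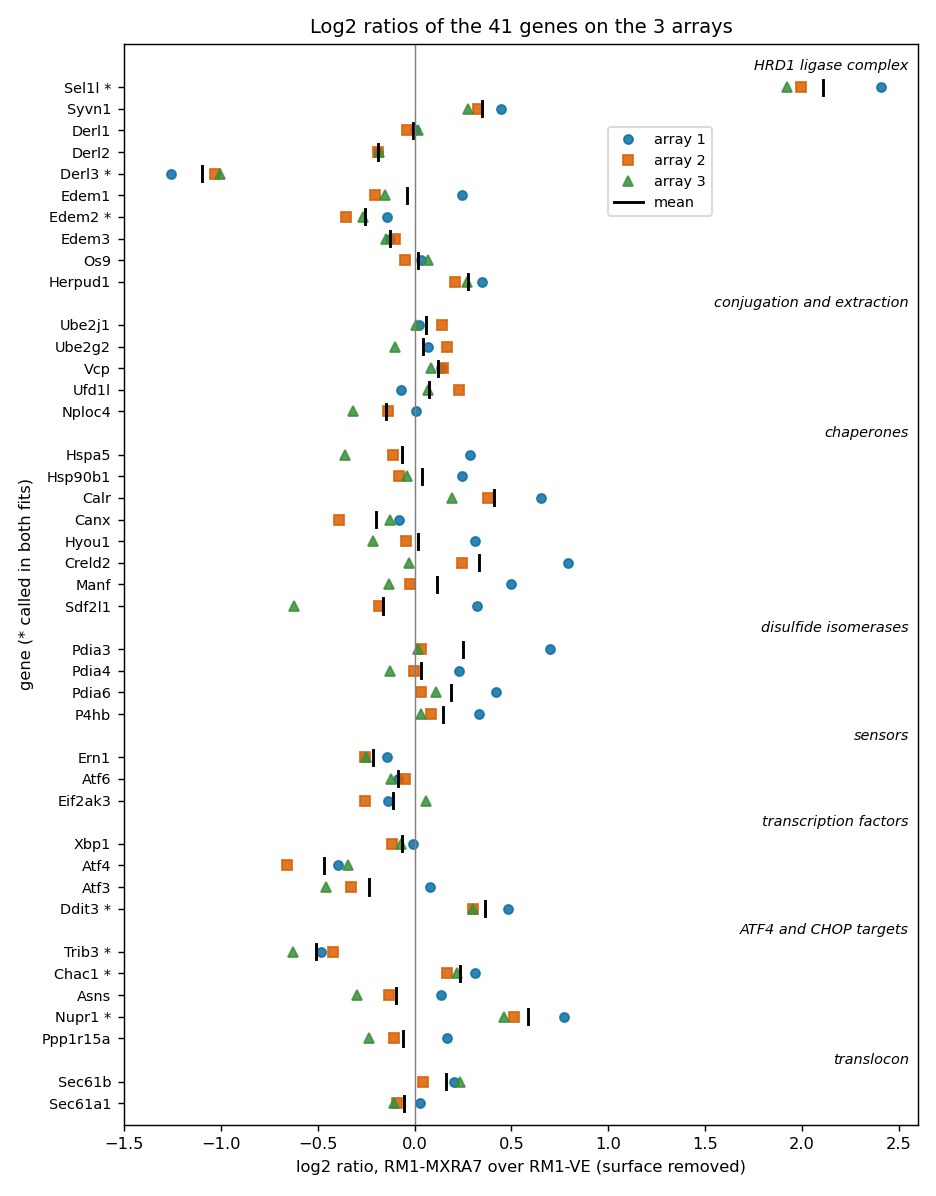
Log2 ratios of the 41 genes (x axis, RM1-MXRA7 over RM1-VE, surface removed), 1 row per gene grouped by role, with a point per array and a bar at the mean. An asterisk marks the 7 genes called in both fits. Sel1l lies near 2.11 and Derl3, not well above background in RM1-MXRA7, near -1.10. The means of the other genes lie between -0.51 for Trib3 and 0.58 for Nupr1.

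Sel1l, the adaptor of the HRD1 complex, was far higher in RM1-MXRA7. Its mean signals before background correction on arrays 1, 2 and 3 were 5580, 3801 and 3412 in the RM1-MXRA7 channel (Cy3). In the RM1-VE channel (Cy5) they were 1593, 1721 and 1315, with local backgrounds between 36 and 43. After background correction, loess and surface removal the log2 ratios were 2.41, 1.99 and 1.92, larger than the raw signals alone give. No dye swap checks the size that normalization adds. Every array thus placed Sel1l higher in RM1-MXRA7, array 1 somewhat more than the other 2. The mean was 2.11 ± 0.26 (SD, n = 3), a 4.31-fold difference (limma adjusted p = 1.42e-06), and Sel1l ranked 8 from the top among 16758 genes. Loess alone gave 2.01 (limma adjusted p = 5.74e-11) while the value from Agilent's processed signals was 2.17. The value rests on a single probe, at chr12:93044963-93045022 on the minus strand (mm9 coordinates of the array files), from base 5760 of the transcript, and no second probe checks it.

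Of the 14 partners of Sel1l, 0 rose in both fits, where 10.9% of all genes did. Syvn1 encodes HRD1, the ubiquitin ligase that SEL1L holds. Its ratios were 0.45, 0.33 and 0.28, all above zero, with a mean of 0.35 ± 0.09 (SD, n = 3; limma adjusted p = 0.00338). The call was not made with loess alone, where the mean was 0.11 (limma adjusted p = 0.246), but Syvn1 was called higher in the processed signals (0.25, limma adjusted p = 0.0407) and with a surface without intensity terms (0.24, limma adjusted p = 0.015). Herpud1, a small membrane protein that recruits factors to the ligase, had ratios of 0.35, 0.21 and 0.27, also all above zero, and a mean of 0.28 ± 0.07 (SD, n = 3; limma adjusted p = 0.00875). With loess alone it lay at 0.03 (limma adjusted p = 0.772).

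The derlins, membrane proteins that help move substrates out of the ER, differed among themselves. Derl1 had ratios of 0.001, -0.04 and 0.02, with a mean of -0.007 ± 0.03 (SD, n = 3), so its arrays lay on both sides of zero. Derl2 had ratios of -0.19, -0.19 and -0.18, almost the same on every array. Its mean was -0.19 ± 0.003 (SD, n = 3; limma adjusted p = 0.033), yet loess alone called it in the other direction, at 0.33 (limma adjusted p = 0.00288), and its dimmer probes lay at -0.005 and -0.15. Of the 41 genes it was the only one that the fits called in opposite directions.

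Derl3, the derlin strongly induced by ER stress in secretory cells, fell. Its mean signals were 85.2, 70.6 and 73.2 in Cy3 and 197, 145 and 148 in Cy5, and the log2 ratios were -1.26, -1.03 and -1.004. All arrays placed it lower in RM1-MXRA7. The mean was -1.10 ± 0.14 (SD, n = 3; limma adjusted p = 1.14e-05), and loess alone gave -1.05 (limma adjusted p = 6.77e-08). In RM1-MXRA7 it was not well above background on any array, and it passed the filter only through the RM1-VE channel, where it was high. Its difference is therefore a bound, at least 1.94-fold lower, and it had to differ to be tested. The bound sets the mean normalized signal of RM1-VE against the lowest signal well above background in RM1-MXRA7, and it is open to dye bias. Agilent's processed signals gave -4.09, a value that rests on Cy3 signals of 5.17, 2.38 and 2.89 after background subtraction.

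The EDEM proteins trim mannose from misfolded glycoproteins and so mark them for degradation. Edem1 had ratios of 0.25, -0.20 and -0.15, with array 1 above zero and the others below, and a mean of -0.04 ± 0.25 (SD, n = 3). Loess alone called it higher, at 0.26 (limma adjusted p = 0.0368). Edem2 had ratios of -0.14, -0.35 and -0.27, below zero on all arrays. It fell, with a mean of -0.25 ± 0.11 (SD, n = 3; limma adjusted p = 0.0162) and -0.35 with loess alone (limma adjusted p = 0.00239). Its call was lost without array 2 (mean -0.20, limma adjusted p = 0.148) and in Agilent's processed signals (-0.20, limma adjusted p = 0.105). Edem3 had ratios of -0.13, -0.10 and -0.15, a mean of -0.13 ± 0.02 (SD, n = 3; limma adjusted p = 0.114), and loess alone called it lower, at -0.26 (limma adjusted p = 0.0111). Os9, a lectin that reads the trimmed glycans for SEL1L, had ratios of 0.03, -0.05 and 0.07, on both sides of zero, and a mean of 0.02 ± 0.06 (SD, n = 3).

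The genes that act after HRD1 lay close to zero at their brightest probes. Ube2j1 and Ube2g2 encode ubiquitin-conjugating enzymes, and Vcp, Ufd1l and Nploc4 the ATPase and its cofactors that extract the tagged protein. Their means ran from -0.15 for Nploc4 to 0.12 for Vcp. With the surface removed 0 of the 5 were called, where 32.3% of all genes were, and 5 genes are too few to set against that share. With loess alone Ube2g2 was called higher, at 0.38, and Nploc4 lower, at -0.40, where 47.4% of all genes were called. A dimmer probe of Ufd1l lay at -0.20 (limma adjusted p = 0.0245) and at -0.27 with loess alone (limma adjusted p = 0.00773). Dimmer probes of Ube2j1 lay at -0.09 and 0.22 (limma adjusted p = 0.377 and 0.0202), and that of Ube2g2 at -0.07. Over all 14 partners 2 fell in both fits, Derl3 and Edem2, where 12.9% of all genes did, and the median ratio was 0.006. Of these, Derl3 passed the filter only through RM1-VE and so had to differ to be tested.

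Within each array Sel1l stood above every partner. Its log2 ratio exceeded that of Syvn1 by 1.96, 1.66 and 1.65 on arrays 1, 2 and 3, the smallest gap among the 14, with a mean of 1.76 ± 0.18 (SD, n = 3). The widest gap to a partner measured in both lines was that to Edem2, 2.36 ± 0.18 (SD, n = 3). Derl3 was not well above background in RM1-MXRA7, so no size is given for its gap. Against the median of the partners the difference was 2.39, 2.04 and 1.97, with a mean of 2.13 ± 0.23 (SD, n = 3). In all 14 pairs the difference was positive on all 3 arrays. The pairs share the same 3 ratios of Sel1l, so they restate 1 value and are not 14 separate comparisons. Derl3 is among them, though it passed the filter only through RM1-VE and had to differ to be tested. The exact two-sided sign-flip permutation test gave p = 0.25 for each pair and for the median, before and after adjustment over the 14 pairs. As 0.25 is the smallest p that 3 arrays allow, and all differences were positive, the test could give nothing else and decides nothing.

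**Figure D2:**
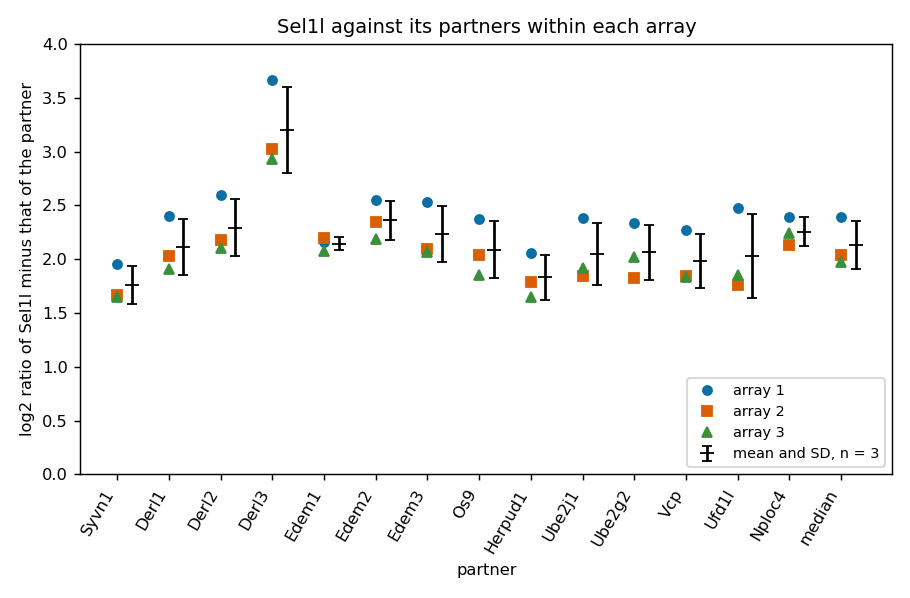
Log2 ratio of Sel1l minus that of each of 14 partners and of their median (y axis), with a point per array and a bar for the mean and SD (n = 3). Every point lies above 1.6. The points of Derl3 rest on a signal not well above background in RM1-MXRA7, so their height is not a measured size.

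The genes around Sel1l were read because earlier results of these data placed it in a part of chromosome 12 with several large ratios. Genes more than 2 Mb away were not read here. Within 2 Mb of its probe 7 other genes were tested. Gm2347, a predicted gene whose probe lies 49.2 kb away at chr12:92995754-92995813 (mm9), had ratios of 1.19, 1.38 and 1.3. It rose on every array, by a mean of 1.29 ± 0.10 (SD, n = 3; limma adjusted p = 2.62e-06), and by 1.45 with loess alone. The other 6 lay between -0.23 for Rpl31-ps12, a ribosomal protein pseudogene, and 0.13 for Gtf2a1, a general transcription factor subunit. Of these 6, 0 were called in both fits, where 23.8% of all genes were, and 6 genes are too few to set against that share. Ston2, an endocytic adaptor gene, lay at -0.007, and the median of the 7 was -0.11.

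**Figure D3:**
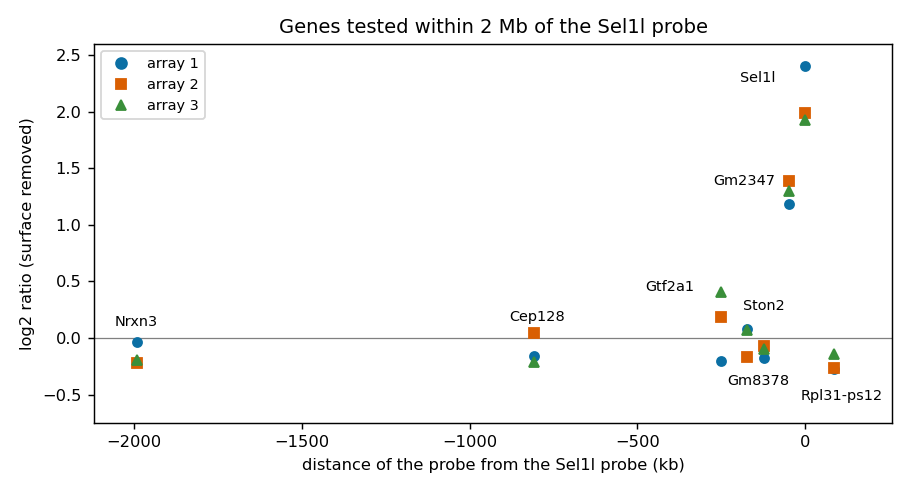
Log2 ratios (y axis, surface removed) of the 8 genes tested within 2 Mb of the Sel1l probe, by the distance of their probe from it in kb (x axis), with a point per array. Sel1l and Gm2347 lie above 1 on every array, and the other 6 lie near zero.

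Of the chaperones and disulfide isomerases of the ER, 0 of 8 and 0 of 4 genes were called in both fits, where 23.8% of all genes were called. With loess alone 5 of the 12 were called, 4 higher and 1 lower, where 47.4% of all genes were called. Their ratios were widely spread between arrays, so the lack of a call does not show equal levels in the lines. Hspa5, the chaperone BiP and the standard marker of the unfolded protein response, had ratios of 0.28, -0.11 and -0.36. Creld2, an ER stress-induced protein, had ratios of 0.79, 0.24 and -0.03. Sdf2l1, a partner of BiP, had ratios of 0.32, -0.18 and -0.62. In each of them array 1 was the highest and array 3 the lowest, and the means, -0.06 for Hspa5, 0.34 for Creld2 and -0.16 for Sdf2l1, lay within 1 SD of zero.

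Array 1 was the highest in all 12 genes. Among all genes tested array 1 was the highest in 34.7%, in 27 of all 41 members, these 12 included, and in 5 of the 14 partners of Sel1l. Calr, the lectin chaperone calreticulin, had ratios of 0.65, 0.38 and 0.20. Its mean of 0.41 ± 0.23 (SD, n = 3; limma adjusted p = 0.00768) was called with the surface removed, and loess alone gave 0.09 (limma adjusted p = 0.439). Pdia3, which works on glycoproteins with calreticulin, had ratios of 0.70, 0.03 and 0.02, so its mean of 0.25 came mostly from array 1. The trophic factor gene Manf had ratios of 0.50, -0.02 and -0.13, again with array 1 far above the others. The co-chaperone gene Hyou1 had ratios of 0.31, -0.04 and -0.22. The ER form of HSP90, Hsp90b1, had ratios of 0.24, -0.08 and -0.04. Canx, the membrane-bound relative of calreticulin, was the gene of the 12 with all ratios below zero, at -0.08, -0.39 and -0.12, and it too was highest on array 1. Among the other isomerases, Pdia4 had ratios of 0.23, -0.003 and -0.13. Pdia6 had ratios of 0.42, 0.03 and 0.11. P4hb, also a subunit of prolyl hydroxylase, had ratios of 0.33, 0.08 and 0.03, so these isomerases too were highest on array 1.

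The median ratio of the 12 genes was 0.33 on array 1, -0.01 on array 2 and -0.08 on array 3. Their median SD was 0.25, against 0.0958 for all genes tested, and in 8 of the 12 the SD stood at or above the 90th percentile of all genes, against 5 of the other 29 members. Array 1 was also the highest in 12 of 12 with loess alone and in 12 of 12 with Agilent's processed signals. In the processed signals it was the highest in 31 of all 41 members and in 8 of the 14 partners, against 35% of all genes. Among 27 further ER folding genes it was the highest in 15 (55.6%). The pattern was noticed after the values were seen and is given with no test.

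The channels taken alone showed arrays differing in both lines, each of which was always in the same dye. In Agilent's processed signals, set on each channel's 75th percentile, Hspa5 had log2 levels of 4.14, 3.53 and 3.06 in RM1-MXRA7 and of 3.85, 3.69 and 3.41 in RM1-VE. Both lines were highest on array 1 and lowest on array 3. Over the 12 genes the level on array 1 less that on array 3 had a median of 0.97 in RM1-MXRA7 (0.41 to 1.46) and of 0.39 in RM1-VE (-0.04 to 0.59). The medians over all genes were -0.02 in both lines. The gap between the lines in this value restates the array pattern of the ratios and is no separate result. RM1-MXRA7 was highest on array 1 in 12 of 12 and RM1-VE in 9 of 12, against 34% and 32.1% of all genes.

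**Figure D4:**
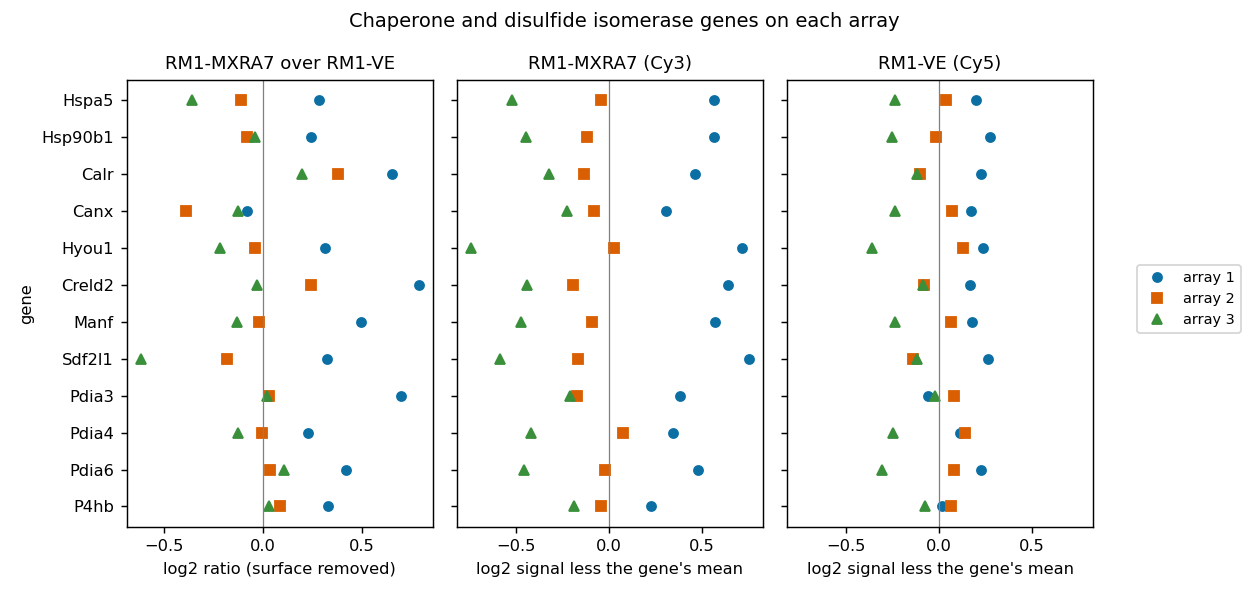
The 12 chaperone and disulfide isomerase genes (rows) on arrays 1, 2 and 3 (points): log2 ratio with the surface removed on the left, and the log2 signal of RM1-MXRA7 (middle) and of RM1-VE (right) less the mean of the gene over the 3 arrays. Array 1 is the highest ratio in every row, and the points spread more widely in RM1-MXRA7 than in RM1-VE.

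Of the 3 stress sensors none was called in both fits, where 23.8% of all genes were. Ern1, which encodes the kinase and nuclease IRE1, had ratios of -0.14, -0.25 and -0.25. Its mean was -0.22 ± 0.06 (SD, n = 3; limma adjusted p = 0.0223), loess alone gave 0.03, and 2 dimmer kept probes lay at 0.02 and -0.04. Atf6, the membrane-bound transcription factor that is cut to become active, had a mean of -0.09 ± 0.04 (SD, n = 3; limma adjusted p = 0.268). Loess alone called Atf6 lower, at -0.22 (limma adjusted p = 0.0267). Eif2ak3, the kinase PERK that slows translation, had a mean of -0.11 ± 0.16 (SD, n = 3; limma adjusted p = 0.247), with arrays on both sides of zero.

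Among the transcription factors only Ddit3 passed in both fits. Ddit3 encodes CHOP, a factor tied to cell death under lasting stress, and had ratios of 0.48, 0.30 and 0.30. It was above zero on all arrays and rose by 0.36 ± 0.10 (SD, n = 3; limma adjusted p = 0.00342), with 0.34 for loess alone and 0.38 for Agilent's processed signals. Xbp1, whose transcript IRE1 splices, had a mean of -0.06 ± 0.05 (SD, n = 3; limma adjusted p = 0.408), and loess alone gave 0.37 (limma adjusted p = 0.00202). Splicing of Xbp1 was not analysed here. Atf4, the factor made when PERK is active, had ratios of -0.39, -0.66 and -0.34, a mean of -0.47 ± 0.17 (SD, n = 3; limma adjusted p = 0.0021). The call was not made with loess alone, where Atf4 lay at 0.09 (limma adjusted p = 0.353). The processed signals gave -0.10, and a dimmer probe lay at 0.03. Atf3, a stress-induced repressor, had a mean of -0.23 ± 0.28 (SD, n = 3; limma adjusted p = 0.0922), and loess alone called it lower, at -0.31 (limma adjusted p = 0.0195).

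Targets of ATF4 and CHOP changed in both directions. Trib3, a pseudokinase that restrains the same pathway, had ratios of -0.48, -0.42 and -0.63. It fell on every array, with a mean of -0.51 ± 0.10 (SD, n = 3; limma adjusted p = 0.000623) and -0.45 with loess alone. Nupr1, a small stress-induced chromatin protein, had ratios of 0.77, 0.51 and 0.46. All were above zero, and it rose by 0.58 ± 0.17 (SD, n = 3; limma adjusted p = 0.000658), with 0.57 for loess alone. Chac1, which degrades glutathione, had ratios of 0.31, 0.17 and 0.22. It rose by 0.23 ± 0.07 (SD, n = 3; limma adjusted p = 0.018) and by 0.45 with loess alone. The call on Chac1 was lost without array 1 (0.19, limma adjusted p = 0.0566), without array 2 (0.27, limma adjusted p = 0.0693) and in Agilent's processed signals (0.17, limma adjusted p = 0.117). Asns, the asparagine synthetase gene, and Ppp1r15a, which restores translation, had means of -0.10 and -0.06 and were not called in either fit. All 3 of Trib3, Nupr1 and Chac1 carry the C/EBP-ATF element named above, and so do Asns, Atf3 and Herpud1.

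The translocon genes Sec61b and Sec61a1, which form the channel into the ER, had means of 0.16 and -0.06. Neither was called with the surface removed, where 32.3% of all genes were. Loess alone called Sec61a1 higher, at 0.40 (limma adjusted p = 0.00113). A dimmer probe of Sec61b lay at 0.18 (limma adjusted p = 0.0388) and at -0.009 with loess alone.

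**Figure D5:**
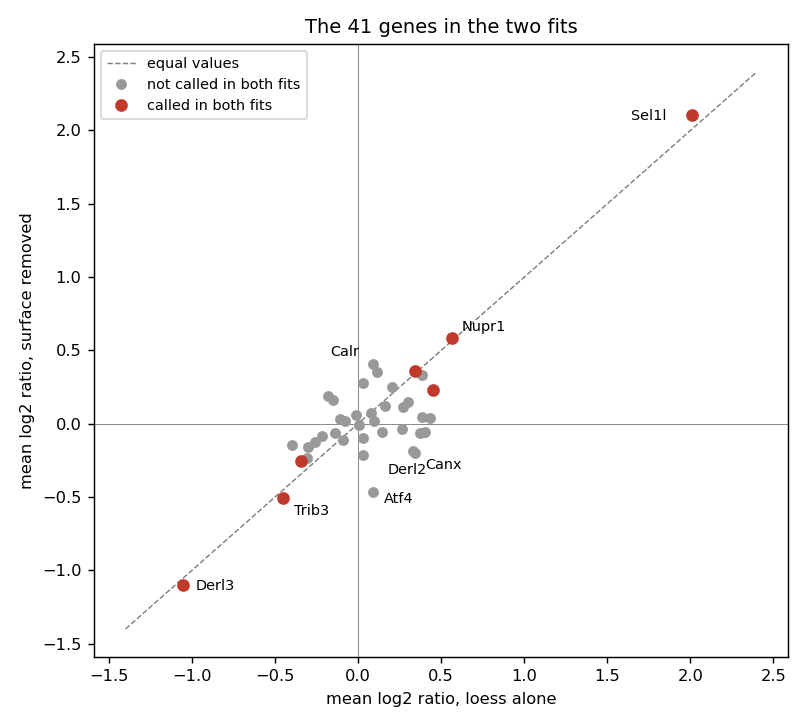
Mean log2 ratio of each of the 41 genes with loess alone (x axis) and with the surface removed (y axis). The dashed line marks equal values and red points mark the 7 genes called in both fits. Sel1l, Nupr1, Trib3 and Derl3 lie near the line, while Derl2, Canx and Atf4 lie above zero with loess alone and below zero with the surface removed.

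Of 136 further genes of the same pathways, 131 were tested, and 17 rose and 10 fell in both fits (20.6%, against 23.8% of all genes). Their median was 0.048. Among further ERAD genes 3 of 32 rose and 2 fell. Atxn3, a deubiquitinase that works with VCP, fell by 0.36 (limma adjusted p = 0.00207), and Rnf139, a ligase of the ER membrane, by 0.21 (limma adjusted p = 0.0199). Ubxn6, a cofactor of VCP, rose by 0.28 (limma adjusted p = 0.00772) and Rad23b, a shuttle to the proteasome, by 0.29 (limma adjusted p = 0.0172). Among further ER folding genes 5 of 27 rose and 0 fell. They included Tmx3, a membrane-bound isomerase, at 0.32, Dnajb9, a co-chaperone of BiP, at 0.37, Uggt2, which re-glucosylates misfolded glycoproteins, at 0.25, and the cargo receptor gene Lman1 at 0.24.

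Of 28 further ATF4 and amino acid response targets, 5 rose and 6 fell (39.3% called, against 23.8% of all genes), the 6 including Cth. Cth, the cystathionine gamma-lyase gene, was not well above background in RM1-MXRA7 on any array and passed the filter only through RM1-VE. The stress cytokine gene Gdf15 fell by 0.84 (limma adjusted p = 0.000442), and Psph, an enzyme of serine synthesis, fell by 0.37 (limma adjusted p = 0.00293). The seryl-tRNA synthetase gene Sars rose by 0.28 (limma adjusted p = 0.00711). Of 17 further sensors and regulators 2 rose and 1 fell. The last was Eif2ak1, an eIF2 alpha kinase that responds to heme, which fell by 0.29, while Ppp1r15b, a phosphatase subunit that opposes it, rose by 0.27 and Mbtps1, the protease that cuts ATF6, by 0.23. Of 28 translocon and glycosylation genes 2 rose and 1 fell, with Ddost, a subunit of the oligosaccharyltransferase, at 0.52, the signal peptidase gene Spcs1 at 0.19, and Srp54a, of the signal recognition particle, at -0.22.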

How the data were processed

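The deposited array files hold, per the file headers, Agilent Feature Extraction output (version 10.7.1.1 per the submitters' processing notes): mean, background and processed intensity of each spot in each channel, on 3 arrays of 1 slide. The series matrix that the authors deposited gives a linear ratio per probe, equal to Cy3 over Cy5 processed signal within 1% for 100% of 117090 values, with column medians of 1.02, 1.03 and 0.972, so its scale, direction and lack of centring are known. In limma 3.58.1 (R 4.3.3), background was corrected with normexp at an offset of 50, followed by loess within arrays. A surface in row and column (degree 4 polynomials, by themselves and multiplied by log2 intensity) was then removed per array. It took 19.8% to 27.4% of the variance, with a median SD between arrays of 0.118 before and 0.0958 after. Across genes, Spearman's correlation with the ratios of processed signals was 0.92 with the surface removed and 0.719 without removal.

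A probe was kept if either channel was well above background on every array (21805 of 39429; 21787 to 24185 above background per array and channel), and a gene was read from its brightest kept probe. The test was lmFit and eBayes of log2 ratios against 0, adjusted by Benjamini-Hochberg over 16758 genes, of which 10 lacked a value on 1 array. Surface removal, probe choice and the limma fit were tested on simulated ratios, with a simulated surface of a form that the polynomials can fit. Background correction, loess and the rule of both fits were not part of that test. The pairing by array number is part of every ratio. Named are Sel1l, its HRD1 partners, every member called in both fits, 7 sensors and effectors whatever their values, and up to 4 called genes per further list. The members and lists were chosen with earlier results of these data known, and the role groups were set after values were seen. The group of chaperones and isomerases, and Gm2347, were singled out after their values were seen. Alternatives covered the background correction, normalization, surface, filter, probe choice, deposited ratios, single channels and each array left out. Some marker genes are not reported here.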

Additional observations from a re-analysis of the deposited data

How the results depend on the processing

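With the surface removed 13 members were called, 7 higher and 6 lower, where 32.3% of all genes were called. With no surface removal 21 were called, 13 of them higher, where 47.4% of all genes were called. Shares of all genes under the other settings are not given, so the counts in this paragraph are no result about the members. With the surface fitted without intensity terms 12 were higher, and with median centring 11 were higher. Agilent's processed signals and the series matrix ratios gave 7 calls each, 4 higher and 3 lower. Single channels with the replicate block gave 13 calls, 7 higher and 6 lower, and with no replicate block 3, 2 higher and 1 lower. Leaving out 1 array gave 9 to 17 calls, 6 to 9 higher and 3 to 11 lower, with 11 lower without replicate 1 and 3 without replicate 2. With no surface removal, means turned to 0.33 for Derl2, 0.26 for Edem1, 0.34 for Canx, 0.37 for Xbp1, 0.032 for Ern1, 0.087 for Atf4 and 0.40 for Sec61a1. With the surface fitted without intensity terms they turned to 0.19 for Derl2, 0.19 for Canx, 0.21 for Xbp1 and 0.26 for Sec61a1. The cause was not tested. Sel1l lay between 1.96 and 2.20 and kept its call in all 15 alternatives. Nupr1 kept its call in 15 of 15, Ddit3 and Trib3 in 14 of 15, Edem2 in 11 and Chac1 in 9. Derl3 kept its call in 14 of the 14 that gave a value, and the filter on both channels dropped it. It had passed the main filter only through RM1-VE, so it had to differ to be tested. Small ratios and dim probes are limited by 3 arrays without a dye swap.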

Other observations

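Xbp1, Asns and Trib3 moved between arrays in both lines. In Agilent's processed signals, set on each channel's 75th percentile, Xbp1 had log2 levels of 2.35, 1.96 and 1.47 in RM1-MXRA7 and of 2.27, 1.99 and 1.51 in RM1-VE on arrays 1, 2 and 3. Asns had 2.08, 1.23 and 0.84 in RM1-MXRA7 and 1.95, 1.40 and 1.14 in RM1-VE. Trib3 had 0.85, 0.56 and -0.30 in RM1-MXRA7 and 1.35, 1.03 and 0.34 in RM1-VE, lower in RM1-MXRA7 on every array. All 3 genes were highest on array 1 and lowest on array 3 in both lines, and the median range over the arrays of all genes was 0.296 in RM1-MXRA7 and 0.281 in RM1-VE. These genes were picked after their values were seen.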
